A study of Mus musculus with 16 samples.

Results

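The 9 genes Mbp, Mog, Mag, Mobp, Cnp, Cldn11, Olig1, Olig2 and Pdgfra, of the myelin-forming oligodendrocyte and its precursor, were followed through RNA sequencing of mouse cortex and cerebellum. They were chosen by name, and 9 of the 37583 genes in the deposited counts answer to these names. All 9 passed the filter on low counts in every comparison. The series holds 16 libraries of the strain C57BL/6J, with 8 animal numbers that each name 1 cortex and 1 cerebellum library, and a number was read as a mouse. This gives 4 groups of 4 libraries: wild-type cortex, wild-type cerebellum, A391T cortex and A391T cerebellum. The A391T mice carry a missense change in Slc39a8, a gene for a metal ion transporter, given in the labels as Slc39a8 A391T (A393T) mutant. The wild-type mice of the study were males of 12 weeks, while neither label nor text used here gives the age or sex of the A391T mice. Libraries are named below by region and mouse, as CTX445 for the cortex and CBLM445 for the cerebellum library with the same number. No cells were sorted, so each library is an average over whole tissue.

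Oligodendrocytes wrap axons of the central nervous system in myelin, a compacted stack of membrane that speeds conduction. Mbp (myelin basic protein) holds the cytoplasmic faces of that membrane together, and Mobp is a small basic protein of the same layer. Mog and Mag are immunoglobulin-type proteins of the outermost and the axon-facing membrane, Cnp is an enzyme of the non-compact channels, and Cldn11 forms the tight junctions of the sheath. Olig1 and Olig2 are basic helix-loop-helix transcription factors found throughout the lineage. Pdgfra, the receptor for platelet-derived growth factor A, marks the precursor cell and is lost as that cell matures. Cldn11 and Pdgfra are also made by fibroblast-like cells of the meninges. The first 6 genes are called structural members here and the last 3 lineage members.

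In the NCBIM37 (mm9) annotation Olig2 (ENSMUSG00000039830) and Olig1 (ENSMUSG00000046160) are neighbours on the plus strand of chromosome 16, at chr16:91225795-91228922 and chr16:91270014-91272184. Pdgfra (ENSMUSG00000029231) lies at chr5:75548316-75594229, Cldn11 (ENSMUSG00000037625) at chr3:31048868-31063246, Mobp (ENSMUSG00000032517) at chr9:120058860-120090602 and Cnp (ENSMUSG00000006782) at chr11:100436218-100453043, all on the plus strand. Mog (ENSMUSG00000076439) at chr17:37147691-37160343 and Mag (ENSMUSG00000036634) at chr7:31684202-31699851 lie on the minus strands of their chromosomes. Of the exon bases of Cnp, 4.23% are also exon of Dnajc7 on the other strand, and reads there cannot be told apart because counting ignored strand. No other member shares exon bases with another gene.

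RefSeq promoters (GRCm38.p6) were matched for 7 of the 9 members, and the 250 bases before the start are printed for the 4 matched members that differed between regions in wild type and for Mobp, which was added after its matches were seen. They were searched on both strands for CAGCTG and CAGATG, E-box letters that helix-loop-helix factors bind, for AACAAT and ACAAAG, letters of Sox-type sites, and for TATAAA. Capitals mark every match, written as it stands on the gene's strand, and no matches overlapped.
Olig2, chr16:91225300-91225549, plus strand: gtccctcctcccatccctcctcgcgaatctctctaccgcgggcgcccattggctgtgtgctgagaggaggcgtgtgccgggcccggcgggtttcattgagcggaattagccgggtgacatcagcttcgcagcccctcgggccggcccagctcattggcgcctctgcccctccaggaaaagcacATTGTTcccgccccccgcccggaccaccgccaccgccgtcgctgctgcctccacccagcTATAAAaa
Pdgfra, chr5:75152001-75152250, plus strand: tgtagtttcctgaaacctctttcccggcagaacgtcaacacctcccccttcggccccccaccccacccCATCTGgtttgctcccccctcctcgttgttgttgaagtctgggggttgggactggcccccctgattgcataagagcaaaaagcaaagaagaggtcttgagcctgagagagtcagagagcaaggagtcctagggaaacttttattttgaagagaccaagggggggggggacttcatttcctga
Cnp, chr11:100574689-100574938, plus strand: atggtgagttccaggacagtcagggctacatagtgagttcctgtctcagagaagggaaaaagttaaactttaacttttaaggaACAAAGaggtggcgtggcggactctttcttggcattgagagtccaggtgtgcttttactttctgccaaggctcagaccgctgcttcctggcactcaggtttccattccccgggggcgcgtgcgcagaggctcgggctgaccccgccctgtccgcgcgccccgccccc
Cldn11, chr3:31149670-31149919, plus strand: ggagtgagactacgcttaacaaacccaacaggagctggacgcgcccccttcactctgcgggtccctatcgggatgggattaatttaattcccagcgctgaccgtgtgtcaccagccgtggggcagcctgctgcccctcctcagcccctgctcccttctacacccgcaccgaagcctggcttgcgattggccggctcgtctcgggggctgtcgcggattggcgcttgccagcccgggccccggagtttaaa
Mobp, chr9:120149492-120149741, plus strand: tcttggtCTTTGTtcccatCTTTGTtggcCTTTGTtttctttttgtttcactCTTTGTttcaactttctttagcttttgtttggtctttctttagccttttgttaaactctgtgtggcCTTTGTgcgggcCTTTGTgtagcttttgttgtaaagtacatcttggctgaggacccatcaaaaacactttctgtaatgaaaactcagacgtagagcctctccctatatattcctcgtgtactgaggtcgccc
Olig2 had 1 AACAAT match 67 bases and 1 TATAAA match 8 bases before the start, with 66.8% G and C against a median of 52.4% over 32851 promoters. Pdgfra had 1 CAGATG match, 182 bases before the start, and Cnp had 1 ACAAAG match, 167 bases before. Mag had 1 ACAAAG match on the strand opposite to the gene, 126 bases before 1 of its 3 starts and 67 bases before another, and Mog had none of the letters. The Mobp window held 6 ACAAAG matches, all on the strand opposite to the gene, a number reached in 0.00304% of promoters, which is this one alone. Of all promoters 13.0% held CAGCTG, 14.4% CAGATG, 9.42% AACAAT, 16.5% ACAAAG and 12.4% TATAAA at least once. A match is a description of letters and not of binding.

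Counts on genes ranged from 20813432 to 30497206 per library. The tissue labels held: all 6 cortical neuron markers were lower and all 6 cerebellar neuron markers higher in cerebellum. Of 5 Schwann cell markers, which peripheral nerve would bring, 3 were present in the deposited counts. They summed to at most 1.98 TPM (transcript abundance corrected for gene length) in any library. The names of 8 of the 16 columns in the authors' RPKM table differ from the count files that hold the same values. They belong to 4 mice, and the columns named CTX447 and CTX448 hold the counts of the files CTX461 and CTX462 and the reverse, in cerebellum likewise, which exchanges 2 wild-type with 2 A391T mice. Which set is right cannot be told from the files. The names of the count files and labels were used, every comparison was repeated with the other names, and the region was the same under both. One library stands apart: over 14411 genes the deviations of CBLM445 from the mean of its region had an SD of 0.431 on the log2 scale, against 0.142 to 0.280 in the other 15 libraries.

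Levels between genes were compared as TPM, which divides by gene length as given in the authors' RPKM table. For Mbp (ENSMUSG00000041607), on chromosome 18, that length is 4683 bases, where the exons of the annotation cover 8403 bases, so its TPM depends on this choice. Mbp was by far the most abundant member, with 1990 ± 82.8 TPM in wild-type cortex and 2140 ± 376 TPM in wild-type cerebellum (SD, n = 4). It held 0.211% to 0.357% of all counts of a library, and the 6 structural members together 0.347% to 0.557%. In wild-type cortex Mobp followed with 461.9 ± 36.3 TPM, then Cnp with 308 ± 8.88, Mag with 283 ± 15.9, Cldn11 with 283 ± 13.1, Olig1 with 249 ± 27.0, Mog with 118 ± 12.4, Olig2 with 49.5 ± 7.02 and Pdgfra with 34.3 ± 2.19 TPM. Mag and Cldn11 did not differ beyond their spread in that order, and the spreads of Cldn11 and Olig1 met. The 9 members kept this order in 3 of the 4 groups by TPM, and in A391T cerebellum Cnp, with 491 ± 38.7 TPM, stood above Mobp, with 420 ± 129 TPM. Without division by length from 2 to 5 members took another rank, since Mobp and Pdgfra are long and Olig1, Cldn11 and Mog short.

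The question of the region comparison is how RNA of these genes in cerebellum differs from that in cortex. The lineage members were lower in cerebellum in both genotypes, and Pdgfra differed most. Of the structural members Cnp was higher in cerebellum in both genotypes, while Mbp, Mog and Mobp passed in neither. With only the 2 mice a group whose names match in both sets of names, Cldn11, Olig1, Olig2 and Pdgfra passed in wild type and Olig2 and Pdgfra in A391T. In wild type 1 member rose and 4 fell by edgeR's quasi-likelihood test (adjusted p under 0.05 after Benjamini-Hochberg adjustment over all 16040 genes tested), where 34.7% of all genes passed as higher in cerebellum and 33.1% as higher in cortex. In A391T mice 2 members were higher and 3 lower, against 31.6% and 31.3% of 16005 genes. A change of at least 2-fold was met in each genotype by Pdgfra alone, lower in cerebellum, where 14.2% of all genes in wild type and 14.9% in A391T were at least 2-fold lower, and 10.5% and 9.80% at least 2-fold higher. Fewer cells of a type and less RNA per cell cannot be told apart in whole tissue. The values that follow are CPM, counts scaled to library totals that were corrected by TMM factors, and a fold change is that of cerebellum over cortex on the log2 scale.

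Pdgfra read 60.2, 65.9, 67.2 and 67.9 CPM in the wild-type cortex libraries and 23.9, 22.9, 24.9 and 23.7 CPM in the wild-type cerebellum libraries. The groups did not overlap, as for 63.0% of all genes in wild type and 60.9% in A391T, and the lowest cortex library was above every cerebellum library of both genotypes. The log2 fold change was -1.46 (SE 0.06, adjusted p = 3.5e-09), a 2.74-fold lower level. In A391T mice, with 57.8, 67.0, 73.7 and 66.6 CPM in cortex and 28.6, 22.9, 24.5 and 23.5 CPM in cerebellum, it was -1.43 (SE 0.10, adjusted p = 6e-07). Pdgfra was also the member that varied least among cerebellum libraries, as the plot of member levels shows. Summed markers of fibroblasts and meninges, cells that can also make Pdgfra, moved the other way, from 48.4 to 66.6 TPM in cortex libraries to 97.2 to 128 TPM in cerebellum libraries, and their part in the Pdgfra values was not tested.

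**Figure D1:**
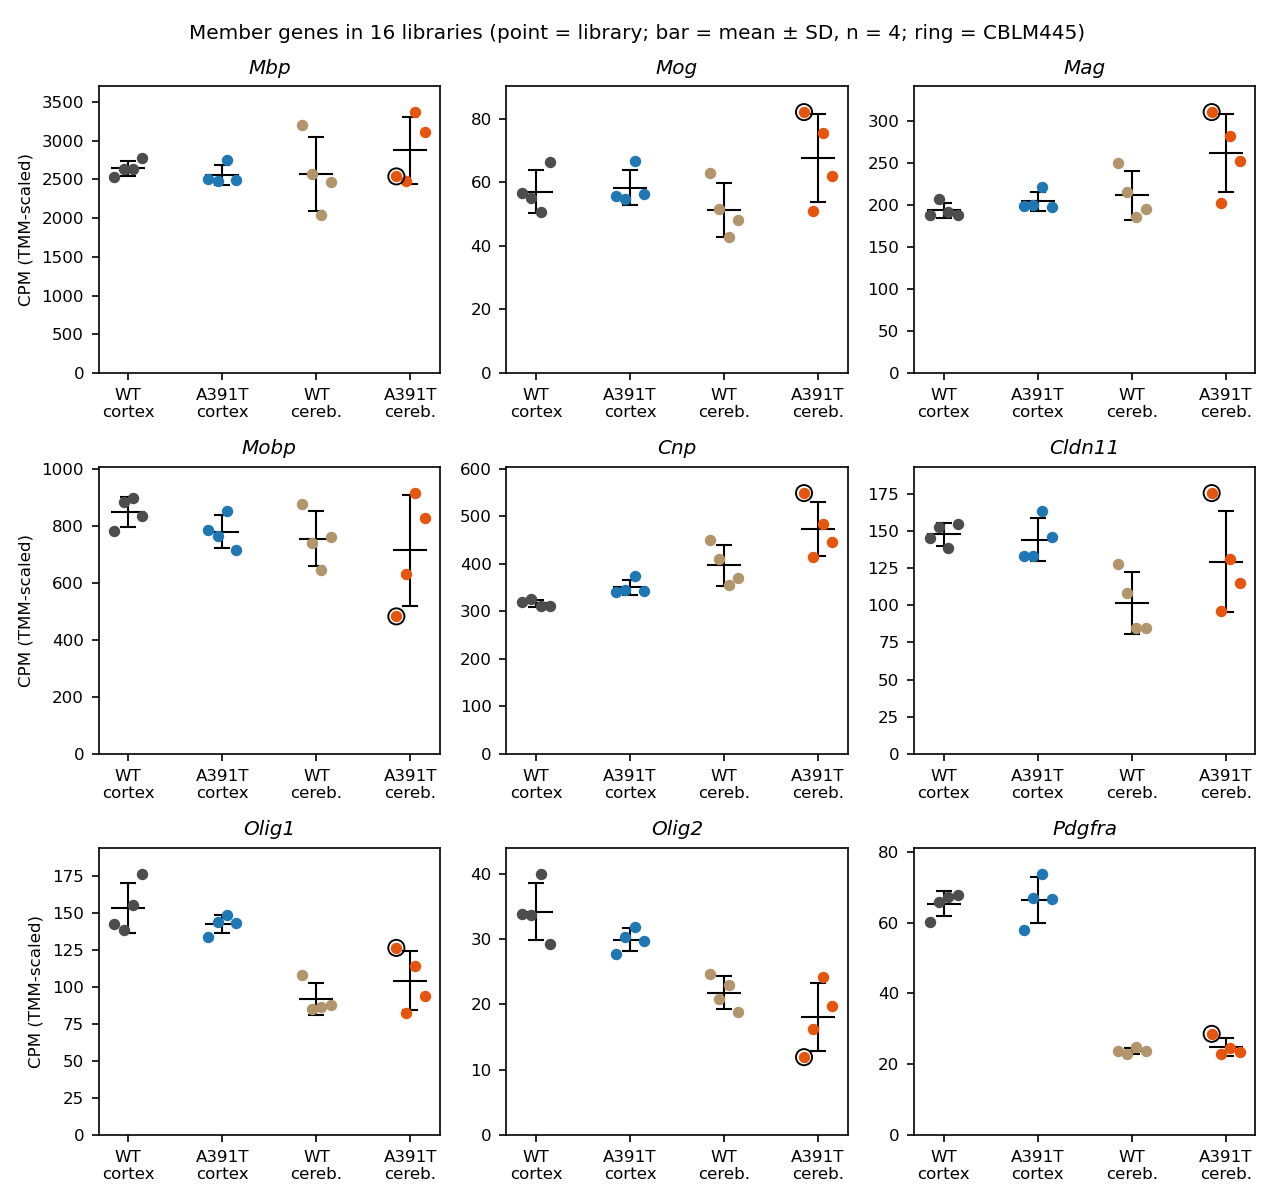
Level of each member in every library, in CPM on TMM-scaled totals (linear axes from 0), for wild-type (WT) and A391T cortex and cerebellum (cereb.). Points are libraries, bars the mean ± SD of 4, and rings mark CBLM445; Pdgfra lies at 57.8 CPM or more in all 8 cortex libraries and at 28.6 CPM or less in all 8 cerebellum libraries, while the Mbp groups overlap.

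Olig1 and Olig2 were lower in cerebellum in 8 of 8 mice. Olig1 read 143, 138, 155 and 176 CPM in wild-type cortex and 108, 85.1, 86.7 and 87.8 CPM in wild-type cerebellum, a log2 fold change of -0.74 (SE 0.10, adjusted p = 4.2e-05). Olig2 read 33.8, 33.7, 39.9 and 29.2 CPM in wild-type cortex and 24.6, 20.8, 22.9 and 18.8 CPM in wild-type cerebellum, a log2 fold change of -0.65 (SE 0.11, adjusted p = 0.00024). Cortex and cerebellum did not overlap for either gene, over all 8 mice (46.1% of all genes) or within a genotype (63.0% in wild type and 60.9% in A391T). In A391T mice the changes were -0.47 for Olig1 (SE 0.12, adjusted p = 0.0063) and -0.75 for Olig2 (SE 0.18, adjusted p = 0.0048). These neighbouring genes went apart in CBLM445, which had the highest Olig1 of the cerebellum, 126 CPM, and the lowest Olig2, 11.9 CPM. The ratio of Olig1 to Olig2 in TPM was 11.9 there and 4.25 to 5.73 in the other 7 cerebellum libraries. Without CBLM445 the A391T changes were -0.57 for Olig1 (adjusted p = 0.00012) and -0.59 for Olig2 (adjusted p = 0.00043). With only the mice whose names match, the A391T change of Olig1 was -0.43 (SE 0.21, adjusted p = 0.16) and did not pass.

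Cnp, the enzyme of non-compact myelin, was higher in cerebellum in 8 of 8 mice. It read 319, 327, 312 and 311 CPM in wild-type cortex and 450, 410, 355 and 371 CPM in wild-type cerebellum, with no overlap, as for 63.0% of all genes, and a log2 fold change of 0.32 (SE 0.08, adjusted p = 0.0029). In A391T mice the change was 0.42 (SE 0.09, adjusted p = 0.0017), and 0.35 without CBLM445. With only the mice whose names match, Cnp did not pass in wild type, at 0.22 (adjusted p = 0.13), or in A391T, at 0.47 (adjusted p = 0.065). Cldn11, the tight junction protein, went the other way in wild type, with 145, 153, 138 and 155 CPM in cortex and 128, 109, 84.5 and 84.9 CPM in cerebellum, a log2 fold change of -0.54 (SE 0.12, adjusted p = 0.0021). In A391T mice Cldn11 changed by -0.17 (SE 0.16, adjusted p = 0.37) with CBLM445, whose 175 CPM was the highest of all 16 libraries. Without that library the change was -0.35 (SE 0.10, adjusted p = 0.0074), so the call in A391T mice turns on 1 library. The difference between the genotypes in this change was itself not significant, 0.39 on the log2 scale (SE 0.22, adjusted p = 0.77).

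In wild type the other structural members gave smaller differences. Mbp, the major basic protein, averaged 2643 ± 99.0 CPM in wild-type cortex and 2567 ± 480 CPM in wild-type cerebellum (SD, n = 4). That is a log2 fold change of -0.04, with a 95% interval from -0.27 to 0.18 (adjusted p = 0.74). Mbp was higher in cerebellum in 4 of 8 mice, and its direction in wild type turned to 0.08 when library totals replaced TMM scaling. Mog, the outer membrane protein, changed by -0.16 in wild type (interval -0.39 to 0.07, adjusted p = 0.26) and by 0.20 in A391T (-0.08 to 0.47, adjusted p = 0.24). Mobp changed by -0.17 (-0.35 to 0.01, adjusted p = 0.11) and by -0.14 (-0.48 to 0.20, adjusted p = 0.5). Without CBLM447, the wild-type cerebellum library with the highest level of all 6 structural members, Mog at -0.26 (adjusted p = 0.049) and Mobp at -0.24 (adjusted p = 0.024) passed in wild type. Without CBLM446, Mog passed in A391T mice in the other direction, at 0.31 (adjusted p = 0.036). Without CBLM445, Mbp passed in A391T mice at 0.21 (adjusted p = 0.04), and Mobp went from -0.14 to 0.01.

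Mag, the adhesion protein that faces the axon, was higher in cerebellum in 7 of 8 mice by TMM-scaled CPM. It changed by 0.12 in wild type (SE 0.09, adjusted p = 0.24) and by 0.34 in A391T mice (SE 0.12, adjusted p = 0.026). That call was lost without CTX445 (adjusted p = 0.069), CTX446 (0.068), CTX462 (0.068) or CBLM461 (0.063), with the names of the RPKM table (0.056), with those names and the mouse as a block (0.07), and with only the mice whose names match (0.25). The fold change in these fits was 0.27 to 0.34. Library totals in place of TMM moved the median log2 fold change of all genes from 0.02 to 0.14 in wild type and from 0.03 to 0.16 in A391T, and values near 0 are read relative to that shift. With library totals Mag also passed in wild type, at 0.24 (adjusted p = 0.028), and Mbp in A391T, at 0.29 (adjusted p = 0.041).

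Because names conflict for 4 mice, the region was also compared over all 8 mice with the mouse as a block, a fit that does not use the genotype and was chosen after the data were seen. Here 6 of 9 members passed, 2 of them higher in cerebellum and 4 lower, where 37.8% and 35.1% of 16589 genes did. Pdgfra changed by -1.43 (SE 0.07, adjusted p = 9.3e-10), Olig2 by -0.71 (SE 0.08, adjusted p = 7.5e-06), Olig1 by -0.60 (SE 0.09, adjusted p = 6.3e-05) and Cldn11 by -0.37 (SE 0.11, adjusted p = 0.0087). Cnp rose by 0.37 (SE 0.06, adjusted p = 7.9e-05) and Mag by 0.23 (SE 0.08, adjusted p = 0.017). Mbp at 0.05, Mog at 0.02 and Mobp at -0.17 did not pass, with SEs of 0.08, 0.09 and 0.10. Over the same 8 mice cortex and cerebellum did not overlap for Olig1, Olig2 and Pdgfra, as for 46.1% of all genes.

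**Figure D2:**
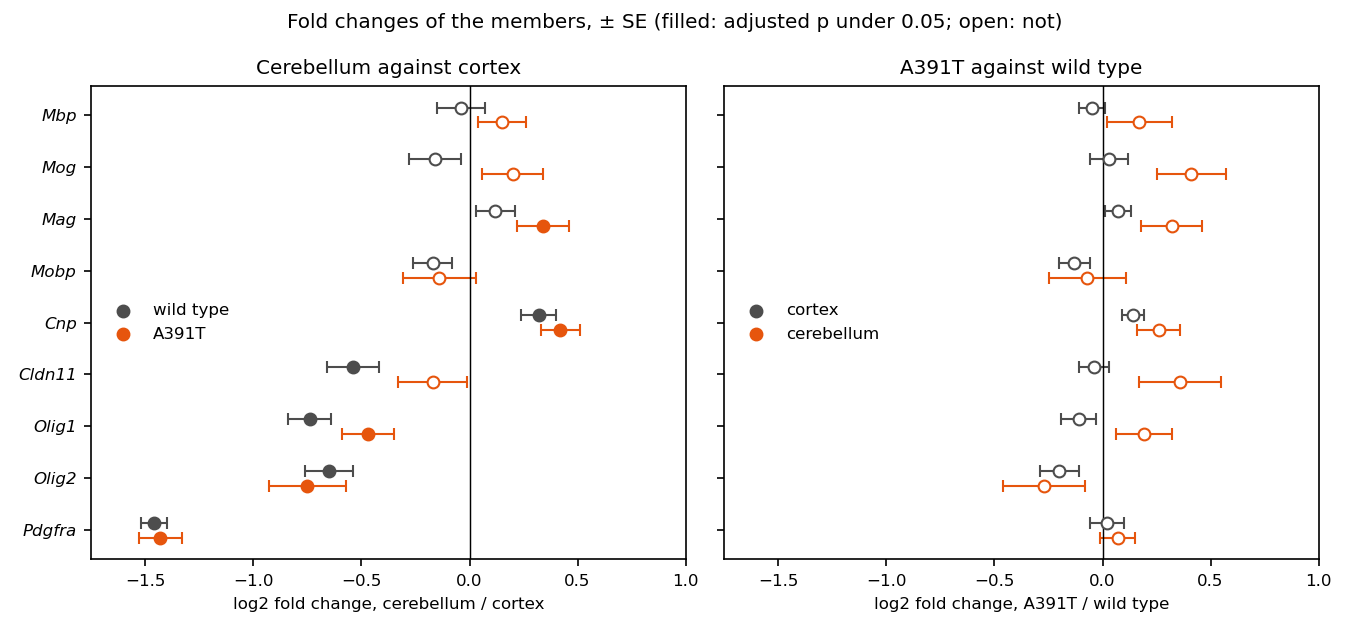
Log2 fold change ± SE of the members for cerebellum over cortex (left) and A391T over wild type (right). Filled points have an adjusted p under 0.05: 5 in each genotype on the left, with Pdgfra at -1.46 and -1.43, and none on the right; the Mbp value in wild type, -0.04, turns to 0.08 with library totals.

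The genotype comparison asks whether the A391T mice differ from wild type within a region, and none of the 9 members passed. In cortex the adjusted p was 1 for every member in edgeR, against 0.00632% of 15815 genes called higher and 0.00632% called lower in A391T, which is 1 gene in each direction. At an unadjusted p under 0.05 there were 2 members in cortex, Cnp at 0.14 (SE 0.05) and Olig2 at -0.20 (SE 0.09), where 4.73% of all genes were under it, and DESeq2 called none. Cnp read 341, 344, 374 and 343 CPM in A391T cortex and 319, 327, 312 and 311 CPM in wild-type cortex, so the groups did not overlap, as for 3.24% of all genes. With the names of the RPKM table the Cnp difference was -0.02 (SE 0.06), and with only the mice whose names match it was 0.12 (SE 0.09). Intervals in cortex were narrow: for Mbp the difference of A391T from wild type was -0.05 on the log2 scale, between -0.17 and 0.06, and for Pdgfra 0.02, between -0.13 and 0.17.

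In cerebellum 0% of 15668 genes were called in either direction by edgeR, and the 9 members had adjusted p from 0.53 to 0.88. At an unadjusted p under 0.05 there were 3 members, all higher in A391T, with Mog at 0.41 (SE 0.16), Mag at 0.32 (SE 0.14) and Cnp at 0.26 (SE 0.10), and DESeq2 called none. Of all genes 8.55% were under that threshold, 767 higher and 573 lower in A391T. Mog read 82.1, 50.9, 75.4 and 61.9 CPM in A391T cerebellum and 62.8, 51.5, 42.7 and 48.0 CPM in wild type, and these groups overlapped. No member reached an unadjusted p under 0.05 without CBLM445, where Mog was at 0.30, Mag at 0.22 and Cnp at 0.18. None did so with the names of the RPKM table either, where the 3 values were 0.12, 0.10 and 0.14. With only the mice whose names match in both sets, 1 member did, Olig2 at -0.56, lower in A391T. The intervals were wider than in cortex, from -0.12 to 0.46 for Mbp and from -0.43 to 0.29 for Mobp. The interaction of region and genotype, which tests whether the region difference itself differs between genotypes, called 0% of 16589 genes and 0 of 9 members (adjusted p from 0.77 to 0.96, no unadjusted p under 0.05, none by DESeq2).

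Around the mean of its region each library deviated in its own way. The SD of log2 CPM over the 8 libraries was 0.064 for Mbp, 0.077 for Mag and 0.164 for Olig2 in cortex, and 0.243, 0.267 and 0.346 in cerebellum. Each structural member varied more in cerebellum than in cortex, from 0.203 for Cnp to 0.355 for Cldn11 against 0.064 to 0.139, while Pdgfra had 0.108 in cortex and 0.104 in cerebellum. Without CBLM445 the cerebellum SD was 0.046 for Pdgfra, 0.216 for Olig2 and 0.158 to 0.278 for the structural members. In CBLM479 all 6 structural members were below the mean of the cerebellum, by 0.16 for Mobp to 0.44 for Mog, and in CBLM461 all 6 were above it, by 0.17 for Cnp to 0.38 for Mog. CBLM445 split them: Cldn11 was 0.64, Mog 0.50, Mag 0.41 and Cnp 0.35 above the mean, Mbp 0.08 below and Mobp 0.58 below. Its ratio of Cnp to Mobp in TPM was 2.03, against 0.872 to 1.17 in the other cerebellum libraries. In that library summed general neuron markers were also the lowest of the cerebellum, 1850 TPM against 2714 to 2960 TPM, and their part in the member values was not tested.

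Members are given here by their Pearson correlations over libraries as a description, since all points share libraries and scaling. Among the 15 pairs of structural members the median r over the 8 cerebellum libraries was 0.67, with 11 positive. Without CBLM445 it was 0.95 over 7 libraries, from 0.76 to 0.99, with all 15 positive. In cortex, where the members vary little, the median was 0.35 with 13 positive. Structural with lineage members had a median of 0.54 over the 8 cerebellum libraries, from -0.66 to 0.92. Over the 7 without CBLM445 it was 0.44, from -0.14 to 0.89. The 3 pairs of lineage members had a median of -0.24 over the 8 libraries, with 1 positive, and of 0.68 over the 7. The map of deviations shows the shared rise and fall in cerebellum and the split in CBLM445.

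**Figure D3:**
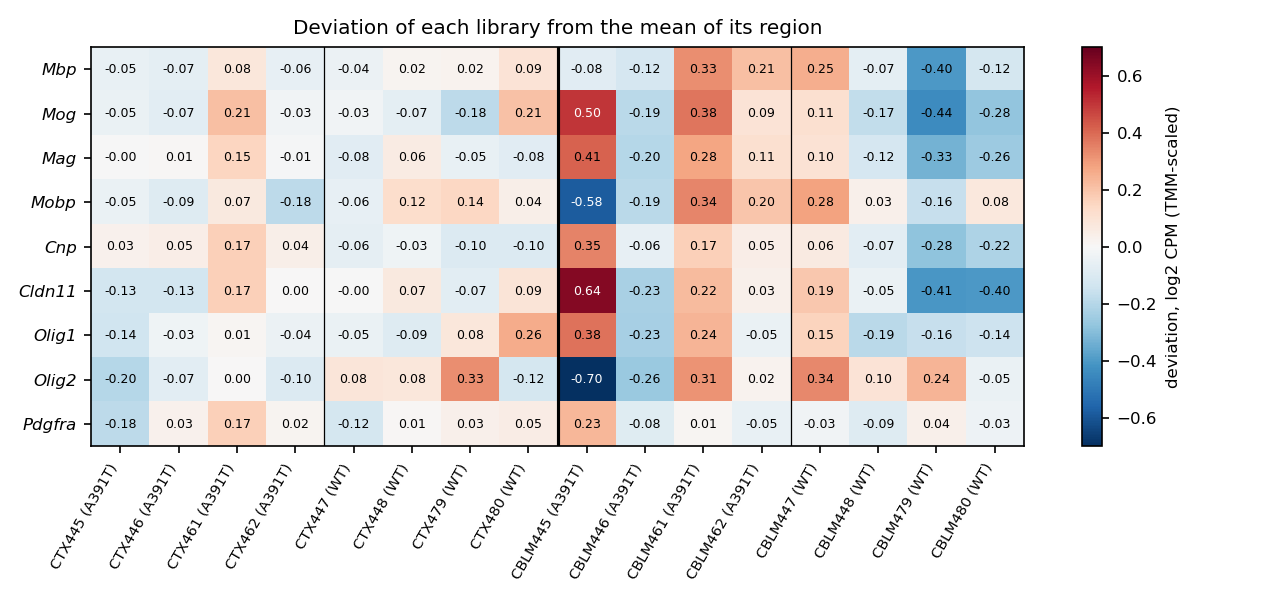
Deviation of each library (columns, cortex left and cerebellum right of the thick line) from the mean of the 8 libraries of its region, in log2 CPM on TMM-scaled totals, for each member (rows). Red is above and blue below the mean; CBLM479 is below it for all 6 structural members, and CBLM445 goes from -0.70 for Olig2 to 0.64 for Cldn11.

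Markers of the choroid plexus, a secretory tissue beside the cerebellum, and of the striatum differed in sum among libraries. Whether such tissue was taken along was not tested. Summed choroid plexus markers ran from 41.7 to 8098 TPM over the cerebellum libraries, and their part in the member values was not tested. Summed striatal markers ran from 265 to 907 TPM over the cortex libraries and from 250 to 310.5 TPM over the cerebellum libraries. The lowest of the cortex libraries, CTX461, was also the one with the most Mog, Mag, Cnp, Cldn11 and Pdgfra. The part of tissue borders in this was not tested. Microglia markers fell in cerebellum in wild type for 6 of 6 genes, and fibroblast and meninges markers rose for 5 of 6.

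Other genes of the lineage were read from lists written with earlier results known, and did not form 1 direction. Of 17 other myelin structural genes tested, 6 were higher in wild-type cerebellum, 5 lower and 6 did not pass. Over all genes 34.7% were higher and 33.1% lower. The median log2 fold change of these 17 was 0.05, against 0.02 for all genes. Sept4 rose by 1.57 (SE 0.06) and Cntn2, an adhesion protein that neurons also make, by 1.40 (SE 0.11). Opalin, a membrane protein of the oligodendrocyte, fell by 1.16 (SE 0.16), and Omg, another membrane protein, fell by 1.00 (SE 0.07). Of 10 genes for myelin lipids 3 rose and 2 fell, against the same shares of all genes. Elovl7, a fatty acid elongase, was at 0.46 and Gal3st1, which makes sulfatide, at -0.64. Lass2, which makes ceramides, rose by 0.23 and Scd1, a desaturase, fell by 0.25.

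Among 18 other oligodendrocyte genes 8 rose, 1 fell and 9 did not pass, where 34.7% of all genes rose and 33.1% fell. Klk6, a secreted protease, rose by 2.60 (SE 0.21). Enpp2 rose by 1.34 (SE 0.46), a gene that the choroid plexus also makes. Tppp, a tubulin-binding protein, fell by 1.48 (SE 0.08). Of 9 transcription factors 3 rose, 3 fell and 3 did not pass: St18 rose by 4.29 (SE 0.15) and Zfp536 by 1.19, while Zfp488 fell by 0.90 and Sox8 fell by 0.58. Of 8 genes of differentiating oligodendrocytes, Fyn, a kinase of early myelination, rose by 0.19, Gpr17 fell by 1.53 (SE 0.16) and Bmp4 fell by 0.58, and 5 did not pass.

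Genes of the precursor cell passed without exception in wild type, 9 of 13 lower in cerebellum and 4 higher, where 33.1% of all genes were lower and 34.7% higher. Their median log2 fold change was -0.75, against 0.02 for all genes. The summed level of the 13 went the other way, from 674 ± 11.9 TPM in wild-type cortex to 1550 ± 27.0 TPM in wild-type cerebellum (SD, n = 4), of which Gpr37l1 alone held 364 and 1181 TPM. Susd5 fell by 2.11 (SE 0.11) and Matn4, a matrix protein, fell by 1.45 (SE 0.09). Gpr37l1 rose by 1.55 (SE 0.06) and Ptprz1 by 0.88 (SE 0.10), genes that astrocytes also make. Of 6 astrocyte markers 3 rose, 1 fell and 2 did not pass, with a median of 0.42, and their part in these values was not tested. In A391T mice 7 of the 13 were lower and 3 higher, where 31.3% of all genes were lower and 31.6% higher. Of the ligands and the other receptor of Pdgfra's family, Pdgfc fell by 1.98 (SE 0.11), Pdgfb fell by 1.37 and Pdgfa fell by 1.06, Pdgfd rose by 2.00 (SE 0.10), and Pdgfrb at -0.20 did not pass. Pdgfa, the ligand best known for precursor cells, averaged 60.5 TPM in wild-type cortex and 32.3 TPM in wild-type cerebellum.

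Mag and Omg are ligands of the Nogo receptor complex of neurons. Of 7 genes of this complex and its ligand Rtn4, 6 were lower in wild-type cerebellum, where 33.1% of all genes were. In A391T 5 were lower, 1 was higher and 1 did not pass, where 31.3% of all genes were lower and 31.6% higher. In wild type the list held Rtn4rl2 at -7.59 (SE 0.14) and Lingo1 at -3.19 (SE 0.10), and Ngfr rose by 1.82 (SE 0.26). Of 9 axonal genes of the node and its flanks 2 rose and 2 fell in wild type, where 34.7% of all genes rose and 33.1% fell. In A391T 2 rose and 4 fell, where 31.6% of all genes rose and 31.3% fell. Wild-type values were 0.67 for Kcna1, a potassium channel beside the node, and 0.40 for Cntnap1, of the axon beneath the sheath's edge. Nrcam fell by 0.88 and Cntnap2 fell by 0.64 in wild type.

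**Figure D4:**
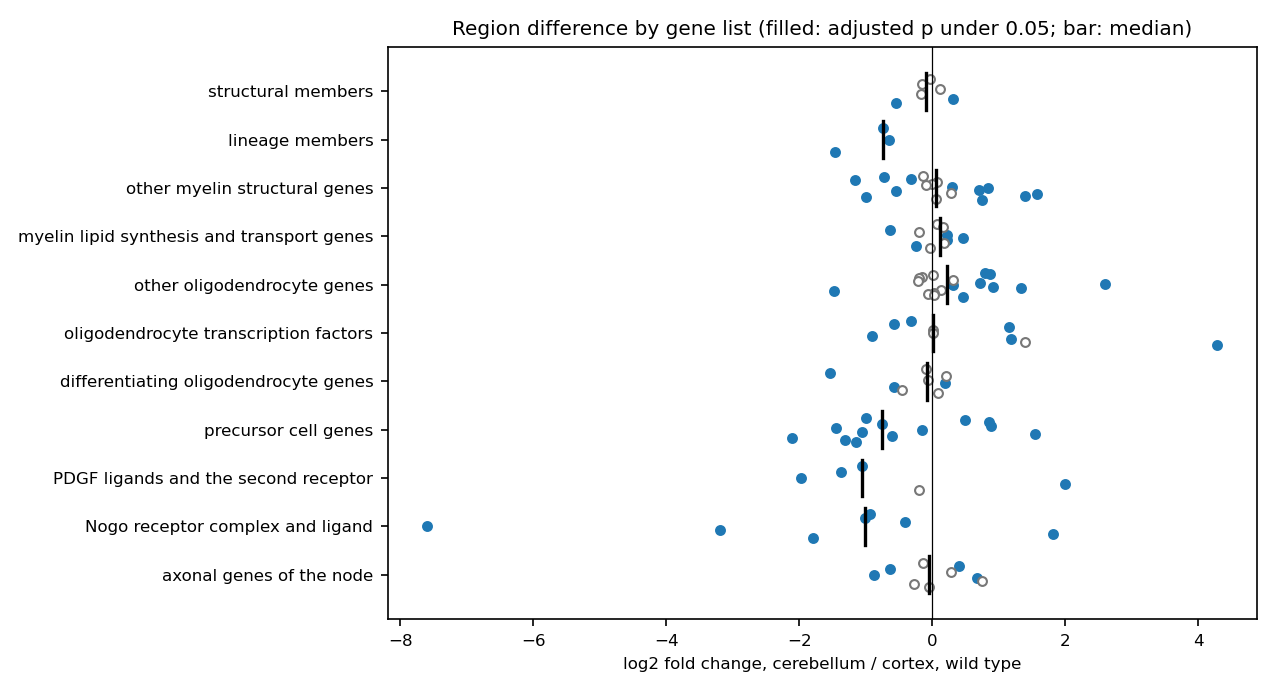
Log2 fold change of cerebellum over cortex in wild type for each gene of a list (points, filled where adjusted p is under 0.05) with the list's median (bar). Precursor cell genes have a median of -0.75 and other myelin structural genes of 0.05.

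No gene of these lists passed in a genotype comparison or the interaction by edgeR. Of 95 list genes tested between genotypes in cerebellum, members left out, 16 had an unadjusted p under 0.05 (16.8%, against the 8.55% of all genes), 15 of them higher in A391T, and DESeq2 called 0. Without CBLM445 it was 14 of 96 (14.6%, against 11.8% of all genes), 13 of them higher. With the names in the authors' RPKM file it was 14 of 95 (14.7%), of which 2 were higher and 12 lower in A391T, so the direction turned with the names. Over all genes it turned as well, from 767 higher and 573 lower to 442 higher and 784 lower (7.82% of all genes). With only the mice whose names match, 6 list genes were higher and 8 lower, and over all genes 607 were higher and 771 lower. In cortex 5 of 96 list genes had an unadjusted p under 0.05 (5.21%, against 4.73% of all genes), and DESeq2 called 1, Sox8, at 0.38 (adjusted p = 0.011 in DESeq2 and 0.55 in edgeR), which is named here after its value was seen. The interaction had 3 of 96 (3.12%, against 4.85% of all genes) and none in DESeq2.

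Genes were also ranked by how closely they followed the members, by Pearson's r over the 16 libraries in deviations from region means, among 14411 genes with at least 1 CPM on average. Among the 10 genes closest to the mean of the 6 structural members were Gna12, Olfml1 and Gsn (each r = 0.92), Ndrg1 (0.91), Plekhb1 (0.89), Cela1 (0.87), and Mal, Car2 and Pllp (each 0.86). All 10 had r from 0.56 to 0.87 over the cortex libraries alone and from 0.90 to 0.98 over the cerebellum libraries. Closest to the mean of Olig1 and Olig2 were Epha10 (0.82), Spp1 and Anln (each 0.81), Htr7 and Cpm (each 0.80). These genes had r from 0.49 to 0.87 in cortex and from 0.79 to 0.91 in cerebellum. Olig1 and Olig2 did not follow each other over the 16 libraries (r = -0.17), so a gene close to their mean need not follow both. Over the 7 cerebellum libraries without CBLM445 their r was 0.74. Among the 5 closest to Pdgfra were C330006K01Rik (0.91), Uxt (0.84), Zdhhc24 (0.83) and Rdx (0.82). Over the 7 cerebellum libraries without CBLM445, r with Pdgfra was -0.09 for Uxt, 0.40 for C330006K01Rik, 0.67 for Zdhhc24 and 0.64 for Rdx.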

How the data were processed

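Cortex and cerebellum of 8 mice were snap-frozen, and poly(A) RNA was sequenced with a directional kit. The authors aligned reads to mm9 with STAR, counted them per gene with HTSeq without regard to strand and deposited counts, with a second table of RPKM values. The versions in the study's software list are not repeated here. The deposited RPKM values served only for gene lengths and to compare sample names. Groups came from the labels and replicates have separate animal numbers.

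The quasi-likelihood test of edgeR 4.0.16 (R 4.3.3) was run on the counts (TMM scaling, filterByExpr, Benjamini-Hochberg adjustment over all genes, threshold 0.05). The SE is the log2 fold change over the root of F. Intervals reach 1.96 SE to each side, which makes no allowance for the small number of libraries. DESeq2 1.42.0 was an alternative, and others were RLE size factors, library totals, no filter, a filter of 1 CPM in 4 libraries, 1 model over 16 libraries, the mouse as a block, the names of the RPKM table, only mice with matching names, a 2-fold criterion and leaving out each library. Log2 CPM used a pseudocount of 0.1. TPM was computed from counts and lengths. The method was tested on simulated counts. The members and lists were chosen with earlier results of these data known. Named list genes were those with the largest change in each direction among the genes that passed. Pdgfa and Pdgfrb are named besides and were chosen after their values were seen. A few genes are not reported here. The study took both regions from 1 brain, and libraries with the same number were read as 1 mouse, which the sources used here do not state. Python 3.11.15 was used for description.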

Additional observations from a re-analysis of the deposited data

Results flagged for a closer look

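Among 36 sets of 4 libraries (9 members in 4 groups), 5 had 1 library whose gap to the nearest other exceeded Dixon's critical value at 95%, where chance gives about 1 in 20. In A391T cortex CTX461 lay above the other 3 libraries for 4 structural members. Its Mbp was 2748 CPM against 2478 to 2502, its Mog 66.63 CPM against 54.62 to 56.45, its Mag 220.8 CPM against 197.8 to 199.9 and its Cnp 373.8 CPM against 340.5 to 344. These 4 values come from 1 library and are not independent of each other. In wild-type cerebellum Olig1 was 108 CPM in CBLM447 against 85.07 to 87.75 CPM in the others.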

How the results depend on the processing

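Of 873 member values under an alternative, 816 kept their direction and their side of the threshold, 18 lost the call, 8 gained it and 31 changed sign. A value that rounds to 0 was not counted as a change of sign. The 2-fold criterion reused the main fit, so under it no sign could change. With the 2-fold criterion 1 member was called in wild type and 1 in A391T, and with only the mice whose names match 4 were called in wild type and 2 in A391T (Olig2 and Pdgfra). Leaving out 1 library gave 5 to 7 called members in wild type, 4 to 7 in A391T and 0 in the genotype comparisons and the interaction. Over all genes, leaving out 1 library gave 10244 to 11282 called genes in wild type and 9271 to 11797 in A391T, the most without CBLM445. The main fits called 10875 of 16040 genes in wild type and 10056 of 16005 in A391T. With only the mice whose names match it was 7724 of 16260 and 6617 of 16234. With the mouse as a replicate block 5 members were called in wild type, 5 in A391T and 0 for the interaction, and the block changed no member's call. Deviations of same-numbered libraries correlated across genes at -0.099 to 0.119, and of differently numbered libraries of a genotype at -0.167 to 0.152, so the pairing rests on the numbers alone. No sign change involved a value that passed. Mbp in wild type turned to 0.08 with library totals, 0.04 with the names of the RPKM table, 0.02 with those names and the block and 0.05 over 8 mice, and ran from -0.16 to 0.03 with 1 library left out. Mog in wild type was 0.02 over 8 mice. With only matching mice the A391T region value was -0.01 for Mbp and 0.01 for Cldn11, and Mobp ran from -0.28 to 0.01 with 1 library left out. Between genotypes in cortex the names of the RPKM table gave -0.13 for Mog, -0.02 for Mag, -0.02 for Cnp and -0.14 for Pdgfra, and matching mice -0.10 for Mog and -0.13 for Pdgfra. With 1 library left out these ran from -0.04 to 0.11 for Mog and from -0.04 to 0.07 for Pdgfra. In cerebellum Mbp was -0.03 with the table's names, and with 1 library left out Mobp ran from -0.23 to 0.07 and Pdgfra from -0.01 to 0.10. The interaction of Mobp was -0.17 with the table's names and -0.19 with the block added, and with 1 library left out ran from -0.10 to 0.20, that of Olig2 from -0.26 to 0.07 and that of Pdgfra from -0.03 to 0.09. The cause of these changes was not tested. Every member had at least 333 counts in each library.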

Other observations

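Markers of other cell types were also read between regions in wild type. Of 5 endothelial markers 1 was lower and 4 did not pass, and of 4 pericyte markers 1 was lower and 3 did not pass. Microglia markers had a median of -1.99, and their summed level was 412.8 to 494.7 TPM in the cortex libraries and 125.7 to 169.4 TPM in the cerebellum libraries of both genotypes. Their part in the values of the oligodendrocyte genes was not tested.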
